A study of Mus musculus with 6 samples.

Results

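The core naive pluripotency transcription factors are 10 genes, Pou5f1, Sox2, Klf2, Klf4, Klf5, Esrrb, Tbx3, Tfcp2l1, Zfp42 and Nr0b1, measured here in embryonic stem cells of the mouse with and without Dppa2. They were chosen by name, and every probe whose RefSeq entry carries 1 of these symbols was taken, which gave 13 of the 41059 probes used and 10 of the 18516 named genes. The series holds 6 arrays in 3 groups of 2, and the labels give each array a sample. The Flag-Dppa2 knockout (15-2KO_Flag15-2) and the mock knockout (15-2KO_mock) have the genotype 15-1CT/CT, 15-2-/-. They lack Dppa2, also called ECAT15-2, and both copies of its neighbour Dppa4, ECAT15-1, are the conditional targeted (CT) allele. The Flag-Dppa2 cells carried the transposon vector piggyBac-CAG-Flag15-2-IP, which makes Flag-tagged Dppa2 from the CAG promoter, and the mock cells carried piggyBac-CAG-IP without it. The wild-type lines (WT) were 15-1+/+, 15-2+/+ and received no vector. Both comparisons with wild type therefore also hold the vector and the Dppa4 allele. They hold a difference in Y-linked transcripts too, which is given below with Nr0b1. The Flag-Dppa2 and mock arrays of 1 number share a knockout line, called line 1 and line 2 here. The lines came from blastocysts of 2 mothers, on a background that mixes 129Sv, C57/BL6 and a Cre or FLPe strain of unknown origin, and grew for 3 days on gelatin in medium with 15% serum and LIF, the cytokine that keeps such cells undifferentiated.

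Naive pluripotency is the state of the early epiblast and of embryonic stem cells in LIF, in which cells can still form every tissue of the body. Pou5f1 (Oct4) and Sox2 bind DNA side by side and are required for pluripotency as such. A second tier of factors holds the naive state: the Krüppel-like zinc finger proteins Klf2, Klf4 and Klf5, the orphan nuclear receptor Esrrb, the T-box factor Tbx3 and the grainyhead-like factor Tfcp2l1, several of which act downstream of LIF and can stand in for one another. Zfp42 (Rex1), a zinc finger protein, is widely used as a marker of naive cells, and Nr0b1 (Dax1), an X-linked orphan nuclear receptor without the usual DNA-binding domain, acts mainly as a corepressor. Most of the naive factors fall when cells pass to formative and primed pluripotency, the states marked by Fgf5, Otx2 and Dnmt3b, while Pou5f1 and Sox2 stay expressed.

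Each level below is the log2 signal of a probe minus the 75th percentile of its array, so that 0 is the signal of that percentile, and levels of different probes are not set against each other. On each array 55.8% to 60.3% of probes were well above background and no spot was saturated, so that precision is limited by how few arrays there are. The pair of WT arrays differed by less than the error that the scanner software estimates, with 0.442% of 14943 bright spots beyond the 95% limit of that error, where 5% are due. The shares were 25.0% between the Flag-Dppa2 arrays and 22.5% between the mock arrays. The WT arrays may thus be 1 sample, although the labels give them different mothers. The levels of WT are given as a mean of 2 arrays without an error. The fit of all 6 arrays takes them as 2 samples. With the WT arrays averaged into 1 sample limma called 0 features in each of the 3 comparisons (2262 in mock against WT, 1455 in Flag-Dppa2 against mock and 1545 in Flag-Dppa2 against WT at an unadjusted p under 0.05), so every call given below, of a member or of a listed gene, rests on counting them as 2. The Flag-Dppa2 arrays lay on 1 slide and the other 4 arrays on another, so slide and group cannot be told apart for Flag-Dppa2, whereas mock and WT shared a slide and a scan. Dppa2 stood at -0.06 and 0.37 in Flag-Dppa2 cells, at -2.10 and -1.99 in mock cells and at 2.13 and 2.07 in WT cells, lowest in mock as labelled. Its probe was well above background on all 6 arrays, mock included, and whether it lies in the deleted part was not checked. The level in Flag-Dppa2 cells was 3.85-fold under that in WT cells, so the return was partial by this probe. Dppa4 stood at 3.60 and 3.79 in Flag-Dppa2 cells, at 3.46 and 3.69 in mock cells and at 2.96 and 2.99 in WT cells. It was thus above WT on both arrays of either knockout group, and was not called against WT. In these bulk samples, fewer cells that express a gene and less RNA per cell cannot be told apart.

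The bases upstream of a start site are shown for the members the results turn on, Nr0b1, Pou5f1 and Zfp42, from RefSeq on GRCm38.p6. Of the 10 genes, 8 matched the promoter table. Capitals mark the letters of any of these motifs on either strand: the octamer ATGCAAAT, the SOX motif CATTGT, the KLF motif CCACACCC, the GC box GGGCGG, the ERR motif CAAGGTCA, the T-box motif AGGTGTGA, the Tfcp2l1 motif, which is CCNG at both ends of 6 free bases, the YY1 motif AAGATGGC and the STAT motif TTCCNGGAA. The regions are chrX:86191525-86191774 on the plus strand for Nr0b1, chr17:35505782-35506031 on the plus strand for Pou5f1 and chr8:43307010-43307259 on the minus strand for Zfp42, each 250 bases that end just before the start site and are printed in the direction of the gene.
Nr0b1: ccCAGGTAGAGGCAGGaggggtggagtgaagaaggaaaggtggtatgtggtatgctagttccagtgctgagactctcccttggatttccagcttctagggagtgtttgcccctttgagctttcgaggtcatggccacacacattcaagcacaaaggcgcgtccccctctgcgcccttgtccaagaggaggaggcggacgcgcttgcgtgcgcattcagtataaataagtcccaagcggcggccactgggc
Pou5f1: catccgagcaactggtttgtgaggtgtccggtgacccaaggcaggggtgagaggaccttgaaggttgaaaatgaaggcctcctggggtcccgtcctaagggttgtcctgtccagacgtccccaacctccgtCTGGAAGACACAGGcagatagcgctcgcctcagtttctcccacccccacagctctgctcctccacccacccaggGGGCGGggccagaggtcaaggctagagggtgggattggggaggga
Zfp42: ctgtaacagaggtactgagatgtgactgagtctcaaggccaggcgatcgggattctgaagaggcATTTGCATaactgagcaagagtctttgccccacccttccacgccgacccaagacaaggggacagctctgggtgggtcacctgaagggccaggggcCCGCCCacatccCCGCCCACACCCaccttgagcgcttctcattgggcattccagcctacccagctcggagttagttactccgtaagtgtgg
The Zfp42 stretch holds the octamer on the opposite strand, 186 to 179 bases before the start, and a KLF motif 75 to 68 bases before it that overlaps 1 of 2 GC boxes. The octamer occurs in 1.60% and the KLF motif in 3.20% of 32851 promoter stretches of this length. The Pou5f1 stretch holds a GC box, found in 32.7% of the stretches, and a Tfcp2l1 motif on the opposite strand, found in 24.9%. RefSeq gives Pou5f1 a further start site, whose stretch, chr17:35508557-35508806 on the plus strand, is not printed and holds a SOX motif alone, on the opposite strand, found in 3512 of the 32851 stretches. The Nr0b1 stretch holds a Tfcp2l1 motif alone, 248 to 235 bases before the start. These matches describe letters and not bound sites.

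In the mock knockout 1 of the core naive factors, Nr0b1, was called higher than in WT, and 0 were called lower. All 10 had a higher mean there, or 8 with quantile normalization, where Klf2 and Tfcp2l1 flip. For 8 of the 10 both mock arrays lay above both WT arrays, where 37.5% of all features did so. For 0 of the 10 both lay below, where 28.2% did. Klf2 is counted by its tested probe, and its other probe gave a difference of -0.32. The higher mean of Zfp42 comes from line 2, since mock line 1 lay -0.03 from the WT mean. Nr0b1 was 2.00-fold higher, and 2.44% of all features were called higher and 3.65% lower. The median log2 difference of the 10 was 0.51, against 0.05 over all 18764 features. At an unadjusted p under 0.05, limma gave 5 of the 10, against 27.0% of all features.

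**Figure D1:**
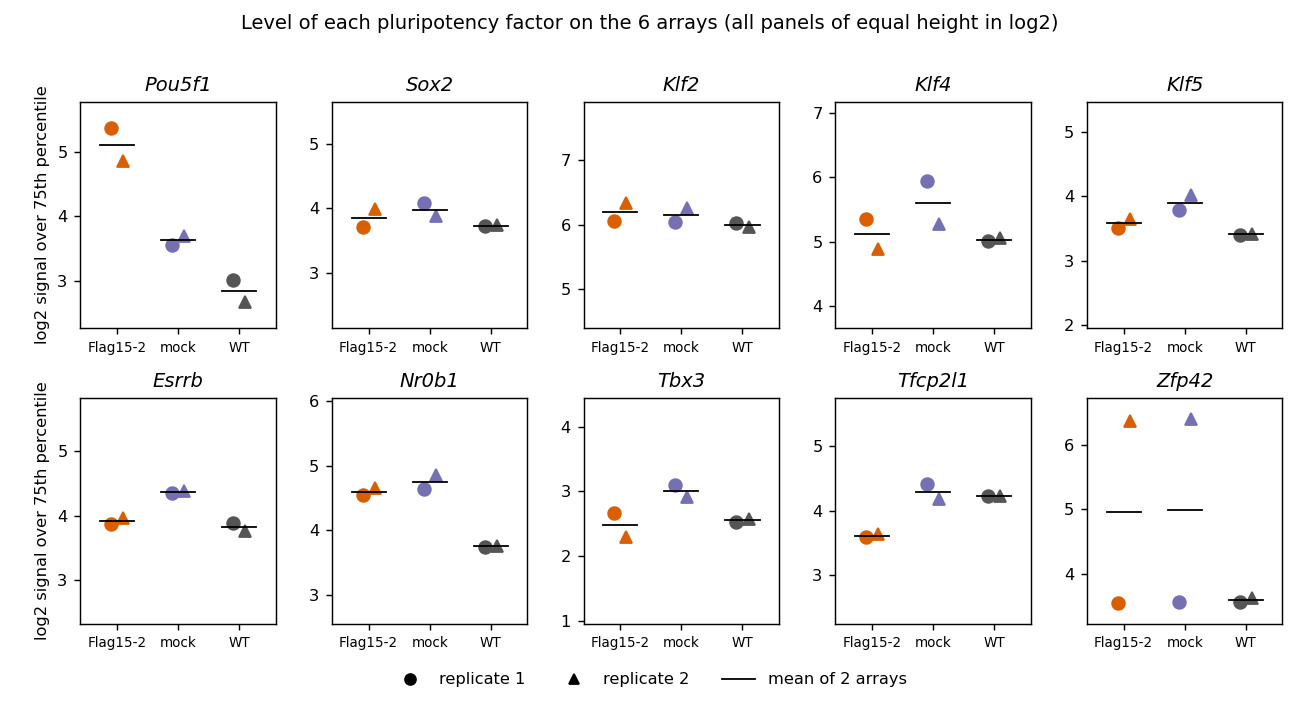
Log2 level relative to the 75th percentile of the array (y axis, each panel centred on its gene and of equal height) of the 10 core naive factors in the Flag-Dppa2 knockout, the mock knockout and WT, with 1 point per array, circles for replicate or line 1 and triangles for 2, and a bar at the mean of each group. Nr0b1 is higher in all 4 knockout arrays than in WT, Pou5f1 steps up toward the Flag-Dppa2 arrays, and Zfp42 separates the 2 knockout lines by 2.81 in Flag-Dppa2 and 2.84 in mock.

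Nr0b1, the corepressor encoded on the X chromosome, stood at 4.64 and 4.86 in the mock arrays, 4.75 ± 0.16 (SD, n = 2), and at 3.74 and 3.76 in the WT arrays, mean 3.75. The log2 difference was 1.00 (SE 0.12, adjusted p = 0.0277), and the difference is several times the spread between the mock arrays. Its call rests on the number of WT samples: with the WT arrays averaged into 1 sample the adjusted p was 0.282, and no feature at all was called. Leaving out any mock or WT array also ended the call, at an adjusted p of 0.0594 without mock line 1, 0.0789 without mock line 2, 0.270 without WT replicate 1 and 0.264 without WT replicate 2. A limma fit of the mock and WT arrays alone, which shared a slide, gave an adjusted p of 0.049. Leaving out the Flag-Dppa2 arrays cannot change the difference itself, so this is no check of the slide. The mock cells differed from WT in sex-linked transcripts too, since the Y-linked genes Ddx3y and Eif2s3y were well above background on both WT arrays and on none of the 4 knockout arrays. Xist, the transcript that marks an inactive X chromosome, was well above background with 0 of its 4 probes on either WT array and with at most 1 probe on any knockout array. The 451 X-linked genes tested had a median difference of -0.02, with 13 called higher and 32 lower. Of all features 2.44% were called higher and 3.65% lower, so the share called lower was larger on the X chromosome. The difference of Nr0b1 was reached by 16 of the 451 (3.55%). In these lines the genotype and the sex-linked transcripts go together and cannot be told apart.

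Pou5f1, the POU factor required for pluripotency, had levels of 3.56 and 3.69 in the mock arrays and 3.01 and 2.67 in the WT arrays. Both mock arrays lay above both WT arrays, and the log2 difference of 0.79 (SE 0.23, adjusted p = 0.12) was not called. The WT arrays lay 0.34 apart for this probe, more than for 97.0% of the 15918 features well above background on all arrays. Sox2, its partner, had 4.08 and 3.88 in mock and 3.72 and 3.74 in WT, a difference of 0.25 (SE 0.15, adjusted p = 0.343). Both mock arrays were above WT for Sox2 as well, by less than for Pou5f1.

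Esrrb, the orphan nuclear receptor, came closest to a call after Nr0b1. Its levels were 4.34 and 4.39 in mock and 3.89 and 3.77 in WT, a difference of 0.54 (SE 0.10, adjusted p = 0.059). The mock arrays agree within 0.05 and lie clear of WT. Letting the prior variance follow the intensity called Esrrb, at an adjusted p of 0.0282, and was the only 1 of 17 settings to do so. The adjusted p was 0.0925 with the replicate block and 0.183 without the filter on dim probes. Among the Krüppel-like factors, Klf4 had 5.94 and 5.28 in mock and 5.01 and 5.06 in WT, a difference of 0.57 (SE 0.29, adjusted p = 0.286). Klf4 was thus above WT in both lines and more so in line 1. Klf5 had 3.79 and 4.01 in mock and 3.40 and 3.42 in WT, a difference of 0.49 (SE 0.12, adjusted p = 0.0956). Tbx3, the T-box factor, had 3.11 and 2.91 in mock and 2.53 and 2.57 in WT, a difference of 0.46 (SE 0.17, adjusted p = 0.174). Neither Klf5 nor Tbx3 overlapped between the groups, and neither was called.

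Klf2 and Tfcp2l1 were each read by more than 1 probe. The Klf2 probe that entered the fit was the brighter of 2 by its mean over all arrays, by little, and the dimmer of them in WT. It had 6.04 and 6.26 in mock and 6.03 and 5.97 in WT, a difference of 0.15 (SE 0.15, adjusted p = 0.567). The other Klf2 probe pointed the other way, with 5.74 and 6.47 in mock and 6.42 and 6.43 in WT, a difference of -0.32 (SE 0.38, adjusted p = 0.643 when every probe was tested). The probes of Klf2 disagree in direction, and neither passed the test. Tfcp2l1, the grainyhead-like factor, had 4.41 and 4.18 in mock and 4.22 in each WT array by its bright probe, a difference of 0.07 (SE 0.12, adjusted p = 0.72). The mock arrays of Tfcp2l1 straddle WT. Its 2 dim probes gave differences of -0.03 (SE 0.12) and -0.38 (SE 0.22), neither called.

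**Figure D2:**
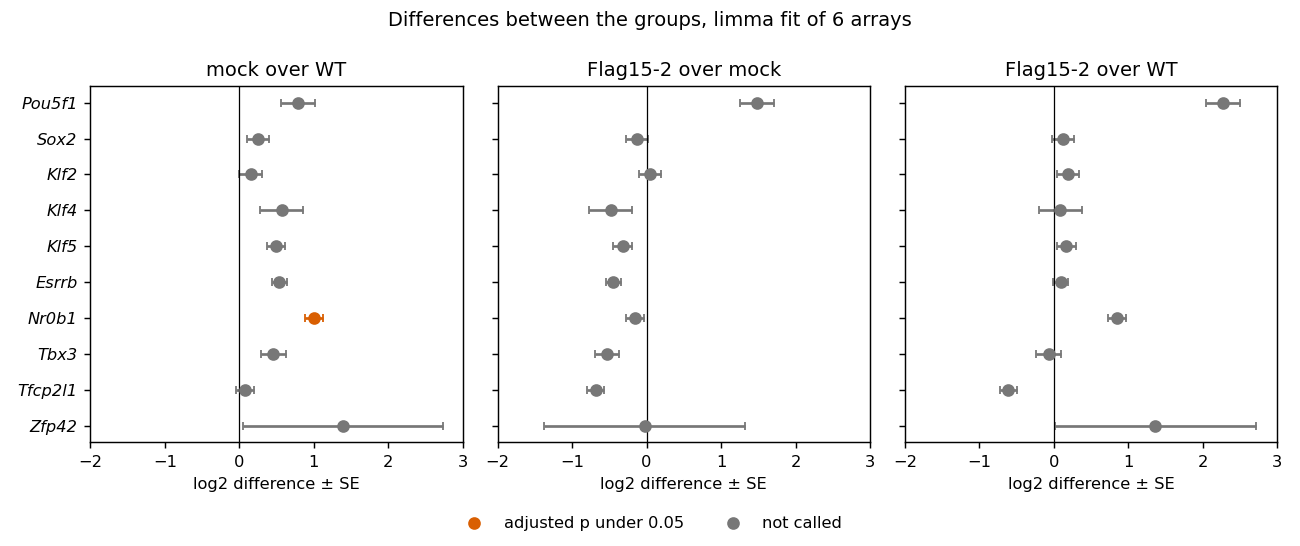
Log2 difference ± SE of the limma fit (x axis) for the 10 core naive factors (y axis) in mock over WT, Flag-Dppa2 over mock and Flag-Dppa2 over WT, with orange points for genes called at an adjusted p under 0.05. In mock over WT every point is right of 0 (Klf2 and Tfcp2l1 flip with quantile normalization) and Nr0b1 is the called one, whereas in Flag-Dppa2 over mock 8 of the 10 are left of 0 and Pou5f1 stands at 1.48.

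The return of Dppa2 into the same lines asks which of these levels move back. With Flag-Dppa2, none of the 10 factors was called against mock by limma, where 0.719% of all features were called (0.682% higher and 0.0373% lower), and 4 of the 10 had an unadjusted p under 0.05, against 13.2% of all features. The median log2 difference was -0.24, against -0.01 over all features. Within lines, 7 of the 10 were lower in Flag-Dppa2 than in mock in both lines, where 36.0% of features were, and 2 were higher in both, where 34.7% were. Both Flag-Dppa2 arrays lay below both mock arrays for Tfcp2l1, Esrrb, Tbx3 and Klf5, 4 of the 10, where 18.8% of features did so. They lay above for Pou5f1, 1 of the 10, where 18.0% did so. This comparison shares the mock arrays with the one before it, so that a high mock value raises one difference and lowers the other.

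Pou5f1 had levels of 5.36 and 4.85 in the Flag-Dppa2 arrays, 5.11 ± 0.36 (SD, n = 2), against 3.56 and 3.69 in mock, 3.63 ± 0.09 (SD, n = 2). Both Flag-Dppa2 arrays lie more than 1 above the mock arrays, and the difference of 1.48 (SE 0.23, adjusted p = 0.101), or 2.79-fold, was not called. Within line 1 Flag-Dppa2 was 1.80 above mock and within line 2 it was 1.16 above. Wnt6, Rraga and Diras1 had the patterns most like Pou5f1 over the 6 arrays among 2819 genes that ranged over at least 1, with Pearson r of 0.994, 0.988 and 0.980. The 6 arrays share lines and slides, and such r values are a description.

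Tfcp2l1 had 3.59 and 3.64 in Flag-Dppa2 and 4.41 and 4.18 in mock, a difference of -0.68 (SE 0.12, adjusted p = 0.123). It was lower in both lines by all 3 of its probes, and its Flag-Dppa2 levels lie under WT as well as under mock. Esrrb had 3.87 and 3.97 in Flag-Dppa2 and 4.34 and 4.39 in mock, a difference of -0.45 (SE 0.10, adjusted p = 0.20). The Flag-Dppa2 mean of Esrrb, 3.92, lies 0.09 above the WT mean of 3.83. Tbx3 had 2.66 and 2.30 in Flag-Dppa2 and 3.11 and 2.91 in mock, a difference of -0.53 (SE 0.17, adjusted p = 0.307). Klf5 had 3.50 and 3.65 in Flag-Dppa2 and 3.79 and 4.01 in mock, a difference of -0.32 (SE 0.12, adjusted p = 0.389). None of these 4 genes overlapped between Flag-Dppa2 and mock.

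Klf4 was lower in Flag-Dppa2 within each line, at 5.36 against 5.94 in mock line 1 and 4.89 against 5.28 in mock line 2, yet the groups overlap and the difference of -0.48 (SE 0.29) had an adjusted p of 0.576. Nr0b1 stayed near its mock level, with 4.55 and 4.65 in Flag-Dppa2, a difference of -0.15 (SE 0.12, adjusted p = 0.691) from mock. Sox2 had 3.71 and 4.00 in Flag-Dppa2, below mock in line 1 and above it in line 2 (difference -0.13, adjusted p = 0.808). Klf2 had 6.05 and 6.33 in Flag-Dppa2 by the probe that was tested, within 0.1 of mock in each line (difference 0.04, adjusted p = 0.953), and 5.29 and 6.13 by the other, which was lower in both lines.

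Against wild type, limma called none of the 10 in the Flag-Dppa2 knockout, where 0.629% of features were called (0.192% higher and 0.437% lower), and 3 of the 10 had an unadjusted p under 0.05, a share near the 21.5% of all features. Pou5f1 stood at 5.11 ± 0.36 (SD, n = 2) against a WT mean of 2.84, a difference of 2.27 (SE 0.23, adjusted p = 0.0506). This is 4.81-fold and just outside the threshold. Of 17 settings, the planned one included, 4 put it inside: normexp background correction (adjusted p = 0.0303), quantile normalization (0.0499), the authors' deposited log2 values (0.0499) and the intensity trend (0.0418). Pou5f1 stayed outside with probes above background on all 6 arrays (0.0535) and without the filter on dim probes (0.112). Nr0b1 differed by 0.85 (SE 0.12, adjusted p = 0.0712), and 2 of the 17 settings, normexp (0.0447) and the intensity trend (0.045), put it inside. It stayed outside with quantile normalization (0.0555) and with probes above background on all 6 arrays (0.0618). Tfcp2l1 differed by -0.61 (SE 0.12, adjusted p = 0.0991), with both Flag-Dppa2 arrays under both WT arrays. Besides these, Klf2 and Klf5 lay above WT on both Flag-Dppa2 arrays, by 0.19 and 0.17, and were not called. The other Klf2 probe had both Flag-Dppa2 arrays, 5.29 and 6.13, below both WT arrays, 6.42 and 6.43, a difference of -0.71 (SE 0.38, adjusted p = 0.356 when every probe was tested). By the tested probes 4 of the 10 lay above, where 33.6% of features did, and 1 lay below, where 26.6% did, so these shares are near those of all features. The other differences from WT, apart from Zfp42, were between -0.07 for Tbx3 and 0.12 for Sox2.

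Zfp42, the marker of naive cells, differed between the knockout lines and hardly between the vectors. It stood at 3.55 in line 1 and 6.37 in line 2 of Flag-Dppa2, at 3.57 and 6.40 in the same lines of mock, and at 3.57 and 3.63 in WT. Line 1 with either vector is thus at the WT level, and line 2 with either vector is far above it. Line 2 was 7.04-fold above line 1 in Flag-Dppa2 and 7.14-fold in mock. Flag-Dppa2 and mock of 1 line lie within 0.04 of each other. The mean difference of mock from WT, 1.39 (SE 1.35, adjusted p = 0.559), and of Flag-Dppa2 from WT, 1.36, therefore describe neither line, and without line 2 the difference of mock from WT was -0.03.

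A fit of the 4 knockout arrays for line 2 over line 1, added after this was seen, gave a log2 difference of 2.83 for Zfp42 (SE 0.09, adjusted p = 0.0823), the 140th in size of 18764. By limma that fit called 0.0% of features, with 5399 at an unadjusted p under 0.05. With both vectors 1.14% of features were at least 4-fold apart between the lines in 1 direction, and 71 features, 0.378%, were at least 4-fold higher in line 2, as Zfp42 was. The other 9 factors differed between lines by -0.56 for Klf4 to 0.25 for Klf2, with Klf4 at an adjusted p of 0.113.

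Zfp42 lies on chromosome 8, as does Klf2, and the genes of that chromosome as a whole were higher in line 2. Over its 717 tested genes the median log2 difference of line 2 from line 1 was 0.49 in Flag-Dppa2 and 0.49 in mock. The medians of the other 19 chromosomes with genes tested lay between -0.05 and 0.10 in Flag-Dppa2 and between -0.06 and 0.05 in mock. In line 2 with both vectors 79.6% of chromosome 8 genes were higher than in line 1, against 33.3% to 47.9% on the other chromosomes. Set against WT, the chromosome 8 median was -0.02 in line 1 and 0.43 in line 2 of Flag-Dppa2, and -0.02 in line 1 and 0.46 in line 2 of mock. Copy number was not measured. The difference of Zfp42 exceeded this shift, and 2 of the 717 genes in Flag-Dppa2 and 3 in mock, Zfp42 among them, reached it. That of Klf2, 0.28 in Flag-Dppa2 and 0.22 in mock by its tested probe, lay under the median of the chromosome. Of the nearest tested genes along the chromosome, Frg1, a candidate gene of facioscapulohumeral muscular dystrophy in humans, differed by 1.30 with either vector, Asah1 by 0.57 in Flag-Dppa2 and 0.70 in mock, Triml1 by 0.69 in Flag-Dppa2 and 0.38 in mock, and Fat1 by 0.29 in Flag-Dppa2 and 0.22 in mock. The others went the other way, Adam26a, well above background on 3 of the 6 arrays, by -0.65 in Flag-Dppa2 and -0.50 in mock, and Fam149a by -0.48 in Flag-Dppa2, while it was not well above background in mock.

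**Figure D3:**
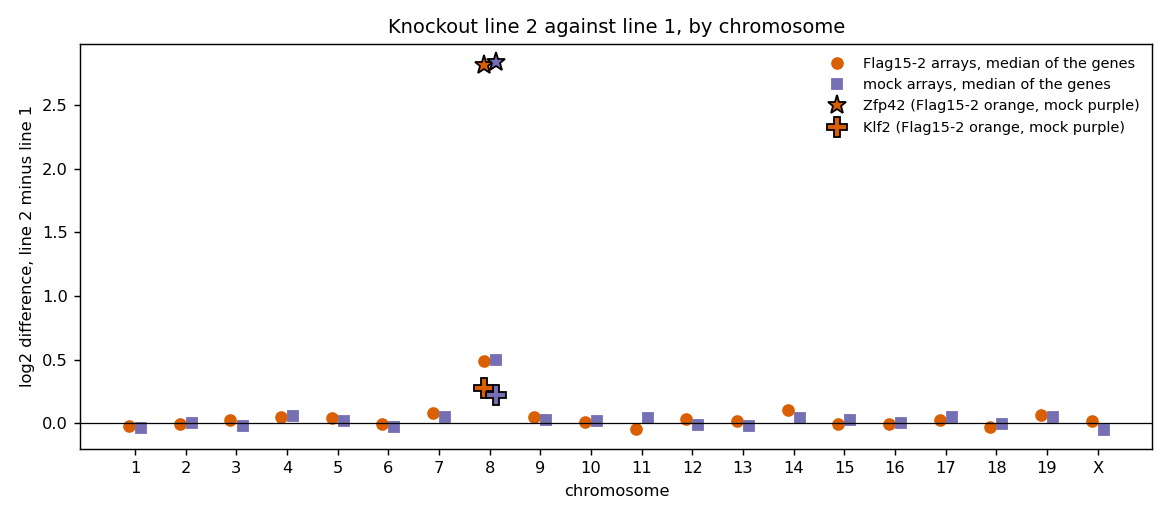
Median log2 difference of knockout line 2 from line 1 over the tested genes of each chromosome (y axis) by chromosome (x axis), in Flag-Dppa2 and in mock, with Zfp42 and Klf2 drawn at chromosome 8. The chromosome 8 medians of 0.49 stand apart from all others, which lie between -0.06 and 0.10, and Zfp42 lies far above its chromosome's median.

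The genes around the core factors were read from lists of related regulators. Of 19 other pluripotency transcription factors, 17 were tested, and Nanog and Prdm14 were not analysed here. In mock against WT, 2 of the 17 were called higher and 0 lower, and their median was 0.28. Of all features 2.44% were called higher and 3.65% lower. Utf1, a chromatin-bound cofactor of stem cells, had 2.44 and 2.53 in mock and 1.59 and 1.63 in WT (difference 0.87, adjusted p = 0.037). Rarg, a retinoic acid receptor, differed by 0.91 (adjusted p = 0.040). The 12 genes of the LIF-STAT3 pathway that feeds Klf4 and Tfcp2l1 had 0 called in either direction (2 at an unadjusted p under 0.05) and a median of 0.12, with Lifr, the LIF receptor, at -0.37 (adjusted p = 0.437) and Stat3 at 0.14 (adjusted p = 0.404). The 8 tested of 10 genes in a list of MYC, LIN28, TET and other genes also had 0 called (4 at an unadjusted p under 0.05), with a median of 0.23. Of all features 27.0% had an unadjusted p under 0.05 in mock against WT.

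Of 19 downstream genes and surface markers of naive cells 18 were tested, and their median in mock against WT was -0.19. Called higher were 2 of them, Jam2, a junction protein (difference 0.67, adjusted p = 0.039), and Tdh, the threonine dehydrogenase of mouse stem cells (0.54, adjusted p = 0.049), and 0 were called lower. Dppa3, a maternal factor that protects DNA methylation, had 2.82 and 2.58 in mock and 4.06 and 4.03 in WT, a difference of -1.34 (adjusted p = 0.061) that was not called. Of 15 tested genes of formative and primed pluripotency, out of 17, 6 were called lower in mock and 0 higher, and their median was -1.17. Over all features 3.65% were called lower and 2.44% higher. Fgf5, the growth factor of the primed epiblast, had -3.85 and -4.01 in mock and -0.28 and -0.30 in WT, a difference of -3.63 (adjusted p = 0.020). Fgf8 fell by 2.78, Car14 by 2.12, Sox4 by 1.17 and the DNA methyltransferase gene Dnmt3b by 0.72, and Zic2, which was not well above background in mock, was at least 2.82-fold lower (adjusted p = 0.039). With Flag-Dppa2, limma called 0 genes of these 5 lists against mock. The formative and primed genes had a median of 0.76 there and 7 at an unadjusted p under 0.05, where 13.2% of all features were. Against WT the call was made for 1 of them, Car14, a carbonic anhydrase, at -1.78 (adjusted p = 0.032), where 0.629% of all features were called.

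The families of the factors were read as well, with 42 of 55 paralogues tested. In mock against WT, 1 was called higher and 3 lower, against 2.44% and 3.65% of all features, with a median of -0.06. Klf15, a Krüppel-like factor best known from muscle and liver, had 1.08 and 0.82 in mock and -0.93 and -1.01 in WT (difference 1.92, adjusted p = 0.010). It stood at -0.08 and -0.01 in Flag-Dppa2, between the other groups, 2.00-fold under mock (adjusted p = 0.077, not called). Sox18 had -4.47 and -4.87 in mock and -2.33 and -2.24 in WT (difference -2.39, adjusted p = 0.047), Sox4 is given above, and Sox6 was at least 2.88-fold lower in mock (adjusted p = 0.021). In Flag-Dppa2 against mock limma called 0 of the 42, with 8 at an unadjusted p under 0.05, where 13.2% of all features were.

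**Figure D4:**
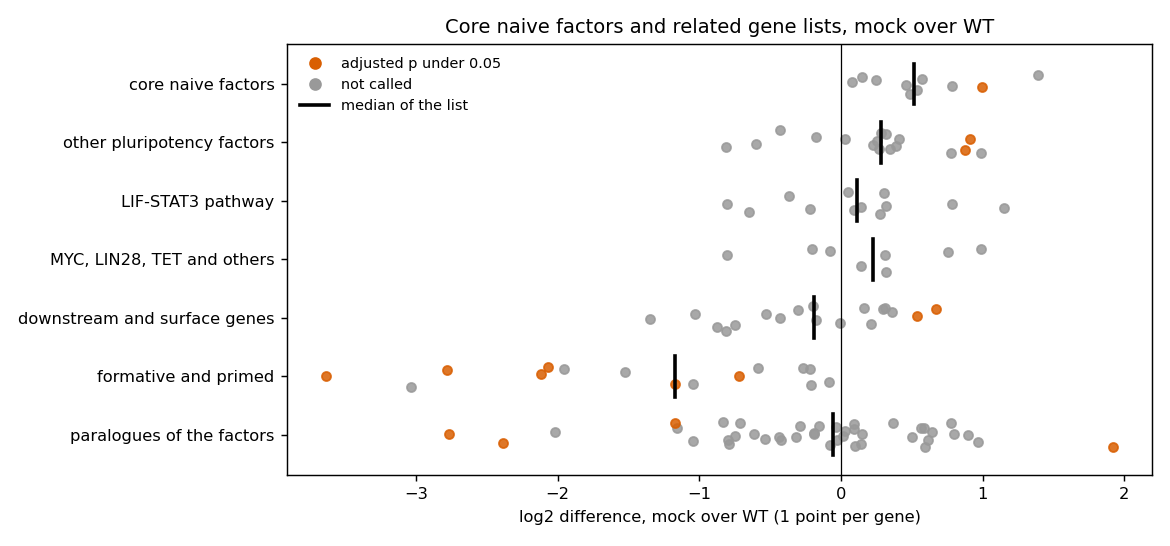
Log2 difference of mock over WT (x axis) for each tested gene of the core naive factors and of 6 related lists (y axis), with 1 point per gene, orange where the adjusted p was under 0.05, and a black bar at the list's median. The median of the core factors, 0.51, lies right of 0, and that of the formative and primed genes, -1.17, lies left of it.

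Markers of other cell types moved as well. The summed linear level of 16 fibroblast and feeder markers was 35.3 to 59.5 in Flag-Dppa2, 27.2 to 41.5 in mock and 57.2 to 61.9 in WT, with 11 to 13 of the genes well above background in Flag-Dppa2, 9 to 11 in mock and 13 to 14 in WT. In mock against WT 3 of 14 tested were called lower, among them the matrix protease gene Mmp2, which fell by 4.27, and in Flag-Dppa2 against mock 3 were called higher. Of all features 3.65% were called lower and 2.44% higher in the former comparison, and 0.682% higher in the latter. The summed level of 11 trophectoderm markers was 34.2 and 137.6 in the Flag-Dppa2 arrays, 22.9 to 43.5 in mock and 68.8 to 70.3 in WT, with 10 of the genes well above background in Flag-Dppa2, 9 to 10 in mock and 10 in WT. That of 12 primitive endoderm markers was 10.6 to 13.1 in Flag-Dppa2, 10.4 to 11.4 in mock and 13.8 to 13.9 in WT, with 10 to 11 well above background in either knockout group and 8 to 9 in WT. In Flag-Dppa2 the 11 tested had a median log2 difference of 0.96 against WT and 1.08 against mock, with 0 called in either comparison. Against WT their sum and their median thus go opposite ways. The 8 neural markers summed to 7.07 to 9.74 in Flag-Dppa2, 6.09 to 8.88 in mock and 10.1 to 10.3 in WT, with 8 well above background in either knockout group and 5 to 6 in WT. Each of these 4 sums, which follow the brightest genes, was lower in both mock arrays than in either WT array, but the calls in mock against WT were mixed. Of the tested genes 1 of 11 primitive endoderm markers was called lower, 1 of 10 trophectoderm markers higher, and 1 of 8 neural markers in each direction. The median log2 difference of mock from WT was -2.16 for the fibroblast and feeder list, -0.82 for the trophectoderm list, -0.17 for the primitive endoderm list and 0.23 for the neural list. The part of these cell types in the levels of the factors was not tested.

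Patterns over the 6 arrays were compared for the 3 other members that ranged over at least 1. The genes most like Nr0b1 were Hmces, Slc4a2 and Nagk, with Pearson r of 1.00, 0.999 and 0.998, and 87 of 2819 genes had r above 0.95. Those most like Zfp42 were Frg1, its neighbour, Gt(ROSA)26Sor and Mast3, with r of 0.999, 0.996 and 0.995, and 70 genes had r above 0.95. Those most like Klf4 were Ptprn, Nkx6-2 and Zfp523, with r of 0.989, 0.989 and 0.986, and 20 genes had r above 0.95, against 13 for Pou5f1. Nkx6-2, a homeodomain factor of the nervous system, had 3.28 and 2.77 in Flag-Dppa2, 4.35 and 3.26 in mock and 2.79 and 2.82 in WT, so that it was high in mock line 1 as Klf4 was.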

How the data were processed

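RNA of 6 samples was measured on 1-colour Agilent arrays. Per the file headers, the authors' deposited intensity values come from Agilent Feature Extraction 10.7.3.1 (protocol GE1_107_Sep09, build mm9), which corrects the background but does not scale between arrays. The deposited log2 values, made in GeneSpring GX11 per the labels, are quantile-normalized without centring (equal ranks agree within 0.00102), and serve as an alternative. Left out were 1639 of 45018 spots as controls, spots with an outlier mark and 115 of 41174 probes. Probes were named through RefSeq accessions (27143 probes). The 75th percentile was subtracted from each array's log2 intensity, a probe had to be well above background on 2 or more of the 6 arrays, and each symbol was read by its brightest probe. These 13298 genes and 5466 unnamed probes were fitted with limma 3.58.1 (R 4.3.3, lmFit with eBayes, 3 residual and 1.43 prior degrees of freedom). The threshold of a call was a two-sided adjusted p (Benjamini-Hochberg) of 0.05. The script was tested on simulated data. Figures were drawn with Python 3.11.15 and matplotlib 3.10.9.

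Replicate numbers pair Flag-Dppa2 with mock, which share knockout lines per the labels (correlation of deviations from the group means 0.59, against 0.01 for Flag-Dppa2 and WT and -0.04 for mock and WT), and the planned fit has no block. Nothing says that arrays of a group came from separate cultures beyond the lines named, so p-values measure the spread between these samples. The files hold a median signal but no mean signal, so normexp (offset 50) used the median. Alternatives were the background correction, the scaling, the filter, the probe rule, the intensity trend, the block, the arrays fitted and each array left out. The members, lists and rules were chosen with earlier results of these data known. Named with values were all members, Dppa2, Dppa4, called genes of the related lists, Stat3 and Lifr, and for members ranging over at least 1 the 3 genes with the highest Pearson r. Dppa3, Nkx6-2, neighbours and sex-linked genes were chosen after their values were seen. A bound compares the bright group with the lowest signal well above background on each dim array.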

Additional observations from a re-analysis of the deposited data

Results flagged for a closer look

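Zfp42 differed from the WT mean by 2.81 in mock line 2 and by -0.028 in mock line 1, where it lay between the WT arrays, and this was not tested line by line. Line 2 over line 1 across both vectors had a limma adjusted p of 0.0823. Tfcp2l1 lay 0.19 above the WT mean in mock line 1 and -0.040 from it in mock line 2, and this difference was not tested. Sox2 was lower in Flag-Dppa2 than in mock by -0.37 in line 1 and higher by 0.12 in line 2, which was not tested either. With 2 arrays a group, no array could be tested as standing apart from its group.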

How the results depend on the processing

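Over the alternatives 458 of the members' values kept direction and call, 7 gained the call, 6 lost it and 19 changed sign. Members called in mock against WT numbered 1 as reported, 0 without the filter on dim probes (Nr0b1 at an adjusted p of 0.08), 2 with the intensity trend (Esrrb and Nr0b1) and 0 with the WT arrays averaged, and 0 to 1 with an array left out. In Flag-Dppa2 against WT they numbered 0 as reported, 2 with normexp, 1 with quantile normalization, 1 with the deposited log2 values and 2 with the intensity trend.

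Features called in mock against WT numbered 1143, with 388 without the filter, 1757 with the intensity trend, 498 with the replicate block, 0 with the WT arrays averaged and 0 to 888 with an array left out. In Flag-Dppa2 against mock they numbered 135, with 51 under normexp, 38 with probes above background on all 6 arrays, 50 without the filter, 5 with the replicate block, 0 with the WT arrays averaged, 0 with the 4 knockout arrays alone, 0 with those and the block, and 0 to 111 with an array left out. In Flag-Dppa2 against WT they numbered 118, with 366 under normexp, 222 with quantile normalization, 223 with the deposited values, 12 with probes above background on all arrays, 6 without the filter, 325 with the trend, 0 with the replicate block, 0 with the WT arrays averaged, 5 with the 4 arrays compared and 0 to 5 with an array left out. Averaging WT left 2262, 1455 and 1545 features at an unadjusted p under 0.05 in mock against WT, Flag-Dppa2 against mock and Flag-Dppa2 against WT. Of the calls in mock against WT 40.1% were higher, against 49.0% with quantile normalization, 49.7% with the deposited values, 52.9% with probes above background on all arrays, 11.3% without the filter and 21.5% with the block. Without the filter the median over all features was -0.14 in mock against WT. With the replicate block Nr0b1 kept its call in mock against WT, at a limma adjusted p of 0.0499, just inside the threshold, and no other member gained one.

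Signs changed as follows. In mock against WT, Klf2 was -0.0037 with quantile normalization and -0.0026 with the deposited values, and Tfcp2l1 was -0.035 with either. With an array left out Tfcp2l1 ran from -0.040 (without mock line 1) to 0.19 and Zfp42 from -0.028 (without mock line 2) to 2.81. In Flag-Dppa2 against mock, Zfp42 was 0.0045 with quantile normalization and with the deposited values. With an array left out it ran from -1.44 (without mock line 1) to 1.39 (without mock line 2), Klf2 from -0.096 (without Flag-Dppa2 line 2) to 0.18 and Sox2 from -0.27 to 0.015 (without Flag-Dppa2 line 1). In Flag-Dppa2 against WT, Klf4 was -0.012 with quantile normalization and with the deposited values. With a Flag-Dppa2 line left out Klf4 ran from -0.14 to 0.32, Sox2 from -0.018 to 0.27, Tbx3 from -0.25 to 0.11 and Zfp42 from -0.044 to 2.77. Where fewer arrays or other features were fitted that is the construction of the alternative, and otherwise the cause was not tested.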

Other observations

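Genes beside the members on their chromosomes were read after their values were seen. Mageb4, a MAGE family gene next to Nr0b1 among the tested genes of the X chromosome, had -2.48 and -2.33 in Flag-Dppa2 and -3.59 and -3.73 in WT, and was not well above background in mock. It was at least 3.23-fold lower in mock than in WT (adjusted p = 0.0073) and at least 7.70-fold higher in Flag-Dppa2 than in mock (adjusted p = 0.0108), while Nr0b1 itself was higher in mock than in WT. Pola1, Tab3, Gk and Dmd, which also lie near Nr0b1, were called in neither comparison.

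Fam149a, the third tested gene from Zfp42 on one side, had -0.68 and -1.16 in Flag-Dppa2 and -1.11 and -1.03 in WT and was not well above background in mock. It was at least 19.4-fold lower in mock than in WT (adjusted p = 0.0158) and at least 21.5-fold higher in Flag-Dppa2 than in mock (adjusted p = 0.033). It thus went with the presence of Dppa2 in both lines, whereas Zfp42 went with the line.

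Near Pou5f1 on chromosome 17, the class I histocompatibility genes H2-Q4 and H2-Q10 were called lower in mock than in WT, by -0.95 (adjusted p = 0.0391) and -0.82 (adjusted p = 0.0289), and H2-Q7 differed by -0.56 (adjusted p = 0.0916). On the other side Tcf19, Cchcr1 and Psors1c2 differed by 0.22, 0.12 and 0.13 and were not called. Genes of the H2-Q family are close copies, so that their probes may read more than 1 of them.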
